A study of Mus musculus with 2 samples.

Results

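Glycinergic amacrine cells of the mouse retina were picked out of a droplet-based single-cell RNA library of each genotype by the transcripts they carried. A member was a barcode with more than 400 UMIs (unique molecular identifiers, each counted as 1 captured RNA molecule) and more than 200 genes, of which mitochondrial DNA (mtDNA) encoded no more than 20% of the UMIs. It also had at least 2 UMIs of *Slc6a9*, the plasma membrane glycine transporter GlyT1, more of them than of *Gad1* and *Gad2* (the GABA-synthesizing enzymes) together, and *Slc6a9* at no less than 0.02% of its UMIs. Last, it held at least 2 of the 6 amacrine genes *Snhg11*, *Tfap2a*, *Tfap2b*, *Pax6*, *Meg3* and *Gria3*. This rule found 199 of 30924 cells, 69 of 12529 in the WT library and 130 of 18395 in the mutant (MT) library. The cells were thus chosen by measured levels of these genes, which are given below as a description only.

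Amacrine cells are the inhibitory interneurons of the inner retina, and they release either GABA or glycine. Glycinergic amacrine cells have small, mostly vertical arbors that join the ON and OFF layers. They include the AII cell, which carries rod signals from rod bipolar cells to the cone pathways through gap junctions made of connexin 36, the product of *Gjd2*. Glycine is taken up from outside the cell by GlyT1 and loaded into vesicles by the transporter encoded by *Slc32a1*, which also loads GABA.

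The study asked how an mtDNA mutation linked to Leber's hereditary optic neuropathy affects the separate cell types of the retina. Both libraries were of whole retina of male C57BL/6J mice aged 7 months. WT animals came from an inbred sibling line. The mutant line carried the P25L change in the mtDNA gene for ND6, a subunit of complex I of the respiratory chain, passed on through the mothers, whose mates were WT. The labels do not say how many retinas entered a library. The mutation is present in every cell of the line, so an effect that arises in amacrine cells and one that reaches them from other cells cannot be told apart.

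The mutated stretch is shown because it is the only designed difference between the libraries. It lies at chrM:13981-14010 (GRCm38, minus strand) in *mt-Nd6*, a gene without introns that runs from 13552 to 14070, and it covers bases 61 to 90 of the 519-base coding sequence. The WT reference is printed 5′ to 3′ along the coding strand, with the base changed by the mutation in capitals.
mt-Nd6, bases 61 to 90: ttaaagccttcacCtatttatggaggttta
The substitution is G13997A on the plus strand, C74T in the coding sequence counted from its first base, and P25L in the protein at codon 25. The deposited counts do not hold the base at this position, so the genotype of single cells was not read here.

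The matrices hold 77958836 UMIs in the WT and 80358255 in the MT library. The members had 722257 and 1071631 UMIs in all, with a median of 7658 UMIs per WT cell (2532 to 66060) and 6982.5 per MT cell (617 to 43122). Depth per cell differed at the lower end, where 20 MT members and 0 WT members had under 2000 UMIs. No member barcode was kept as a member in both libraries, and 59 kept barcodes of any type were shared by the libraries. There was 1 library per genotype, so differences between WT and MT had no replicate check and no test was made. All 95% intervals cover counting error only, and the comparison is of these libraries. Levels are UMIs per 1000000 UMIs of the members (CPM), and log2 ratios are MT over WT unless another pair is named.

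The vesicular transporter gene *Slc32a1*, which the rule did not use, was detected in 82.6% of WT members (exact 95% interval 71.6% to 90.7%) and in 76.2% of MT members (67.9% to 83.2%). In rods, which do not release glycine and have a median of 1794.5 WT and 1400 MT UMIs per cell, it was detected in 0.198% and 0.800%. Its level in members was 162 UMIs (224 CPM) in WT and 304 UMIs (284 CPM) in MT cells. *Slc6a5*, the neuronal glycine transporter GlyT2 that most retinal glycinergic cells lack, was scarce with 27 UMIs in 17 WT and 29 UMIs in 19 MT members. *Chat*, the acetylcholine-synthesizing enzyme of starburst amacrine cells, had 0 UMIs in both libraries. *Gad1* had 2 WT and 16 MT UMIs and *Gad2* had 28 WT and 48 MT UMIs, low by the rule's own limit. *Slc32a1* thus marked most members as inhibitory cells but does not separate glycine from GABA, and it was missing from the counts of 12 WT and 31 MT members.

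Some members also carried transcripts of other cell types. Among the WT members 4 had over 5% of their UMIs in a list of retinal pigment epithelium (RPE) genes, and 3 of those 4 had no *Slc32a1* UMI. These 4 made up 7.31% of the WT members' UMIs. Another 3 WT members had over 0.7% of UMIs in a retinal ganglion cell list and held 14.6% of the UMIs. In the MT library 1 member passed the RPE limit and 0 passed the ganglion cell limit. The RPE list took 0.543% of WT and 0.0220% of MT member UMIs, led by *Ttr*, the thyroxine carrier transthyretin, with 2841 WT and 175 MT UMIs. *Rpe65*, the RPE isomerase of the visual cycle, had 283 WT and 9 MT UMIs. The ganglion cell list took 0.199% and 0.0595%, with 66 WT and 2 MT UMIs of *Slc17a6*, the vesicular glutamate transporter of ganglion cells, 227 WT and 10 MT UMIs of *Sncg* and 215 WT and 19 MT UMIs of the neurofilament gene *Nefm*. A microglial list was at 0.00235% in WT and 0.0170% in MT members, and of the 2 WT and 53 MT UMIs of the complement gene *C1qa* 1 barcode held 94.3% of those in MT.

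Rod transcripts were present in both libraries. The rod list took 1.47% of WT and 2.67% of MT member UMIs, against 8.69% and 9.24% in rods and 6.32% and 7.10% in barcodes of 10 to 100 UMIs, used here as free RNA. Because of these values the lists and many of the genes are also given for 48 WT and 83 MT members with few transcripts of other cell types. These had at least 3 *Slc6a9* UMIs, at most 20000 UMIs, a rod transcript and Müller cell genes at or under 1% each, and RPE, ganglion cell, bipolar and cone genes at or under 0.5% each. In them the RPE list was at 0.00464% and 0.00355% of UMIs and the rod list at 0.868% and 1.46%. Transcripts of some other types were also more frequent in the MT library there. The Müller list was at 0.112% and 0.242%, the bipolar list at 0.0235% and 0.0496% and the cone list at 0.00519% and 0.0226%. Over all members the bipolar list was higher in WT, at 0.127% against 0.0943% in MT. No limit was set on microglial transcripts, and the MT barcode rich in them is among these cells, where the microglial list took 0.00218% of WT and 0.0286% of MT UMIs. *Slc32a1* was detected in 43 of these 48 WT and 73 of these 83 MT cells.

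**Figure D1:**
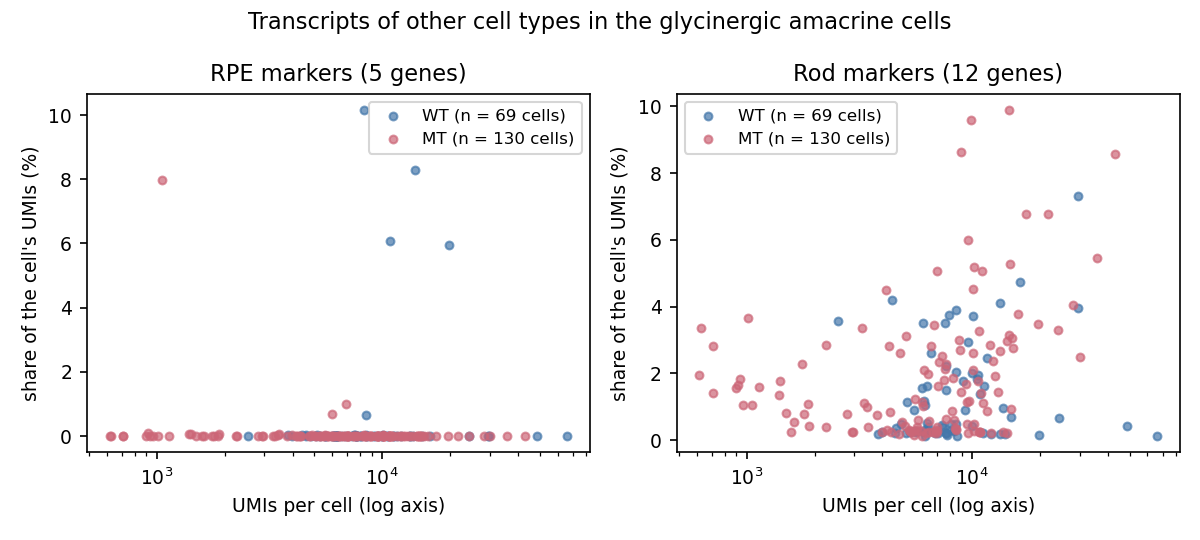
Each point is 1 glycinergic amacrine cell, with UMIs per cell on a log axis and, on the vertical axes, the percent of its UMIs in the RPE list (left) and the rod list (right). The 4 WT cells and 1 MT cell past 5% RPE transcripts stand apart from the rest, while rod transcripts spread over many cells of both libraries.

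At the limits of the rule, 3 WT and 20 MT members had exactly 2 *Slc6a9* UMIs, and *Slc32a1* was found in 1 and 3 of them. Just outside, 6 WT and 39 MT barcodes met every other part of the rule with 1 *Slc6a9* UMI, and 1 and 4 of them had *Slc32a1*. The share limit kept out 2 WT and 29 MT barcodes, and the panel limit 66 WT and 60 MT barcodes, of which 1 and 0 had *Slc32a1*. Free RNA carried more of the rule genes in the MT library, at 0.173% of its UMIs against 0.0106% in WT. *Meg3*, a maternally expressed long noncoding RNA of the panel, was detected in 17.7% of MT rods and 0.936% of WT rods. A barcode could therefore meet the panel limit with less RNA of its own in the MT library, and how many did so was not tested.

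Members made up 0.551% of WT cells (exact interval 0.429% to 0.696%) and 0.707% of MT cells (0.591% to 0.839%). The log2 ratio of these shares was 0.36 (-0.07 to 0.80), an interval that holds 0. The interval excluded 0 with at least 1000 UMIs per cell, at 0.44 (0.0051 to 0.89), and without a limit on mtDNA-encoded transcripts, at 0.94 (0.52 to 1.37). With every cell thinned to 1000 UMIs, leaving out shallower cells, 26 of 10966 WT cells (0.237%) and 39 of 14266 MT cells (0.273%) met the rule. The order of the libraries depended on the limit for mtDNA-encoded transcripts. With a limit of 10% the shares were 1.04% in WT and 0.853% in MT, and the denominators fell by different amounts, to 5000 and 11483 cells.

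The members were sorted into 2 main patterns by detection of the connexin gene *Gjd2* and of *Ebf3*, a transcription factor of the early B-cell factor family. *Gjd2* was detected in 22 WT and 44 MT members (31.9% and 33.8%), and *Ebf3* in 48 and 72 (69.6% and 55.4%). In rods, which also use connexin 36, *Gjd2* was found in 10.9% of WT and 9.59% of MT cells, and *Ebf3* in 0.117% and 0.567%. Cells with *Ebf3* and no *Gjd2* UMI were 39 of 69 in WT (56.5%, exact interval 44.0% to 68.4%) and 58 of 130 in MT (44.6%, 35.9% to 53.6%). Cells with *Gjd2* and no *Ebf3* UMI were 13 in WT (18.8%) and 30 in MT (23.1%). Both genes were found in 9 and 14 cells and neither in 8 and 28. The product of the single shares would give 15.3 WT and 24.4 MT cells with both, so the separation was partial. The cells with both were deep, with median UMIs of 24393 in WT and 13994.5 in MT, and those with neither were shallow, at 6227.5 and 3482.5. The shares of the patterns overlapped in their intervals between the libraries.

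Between the 2 patterns, 4658 genes had enough UMIs to be compared. Of these, 43 (0.923%) had a ratio of summed levels of 4 or more in favour of the *Gjd2*-only cells in both libraries, with intervals that excluded equality, and 68 (1.46%) in favour of the *Ebf3*-only cells. Genes with 0 UMIs in the lower cells count as past this ratio, as 8 of the 43 and 31 of the 68 did, and with the zeros set to 3 counts all 43 and 56 of the 68 stayed at 4-fold or more. The 68 included *Ttr*, an RPE gene, with 54 and 809 UMIs in WT (457 and 2671 CPM) and 6 and 73 UMIs in MT (24.7 and 141 CPM). In WT the RPE list took 0.0516% of UMIs in the *Gjd2*-only and 0.394% in the *Ebf3*-only cells, and 1 of the latter was past the 5% RPE limit. Without the members past that limit *Ttr* had 54 and 10 UMIs in WT and was no longer called, while 43 genes were higher with *Gjd2* and 66 with *Ebf3*, including 42 of the 43 and 66 of the 68. Within the cells with few transcripts of other types 3351 genes could be compared and 44 (1.31%) and 72 (2.15%) were called, including 37 of the 43 and 53 of the 68. Cells were sorted here by 2 genes of the same counts, so these numbers describe the sorting and are no test. The genes named for this contrast were picked after their values were seen. Values are given first for *Gjd2*-only and then for *Ebf3*-only cells.

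Some of the genes called encode transcription factors. *Tfap2b*, an AP-2 factor of amacrine cells and 1 of the rule genes, had 132 and 8 UMIs in WT (1116 and 26.4 CPM) and 197 and 12 UMIs in MT (809.9 and 23.2 CPM). *Nfia*, a nuclear factor I gene known from AII cells, had 48 and 5 UMIs in WT (406 and 16.5 CPM) and 128 and 25 UMIs in MT (526 and 48.4 CPM). *Nfix* and *Nfib*, of the same family, went the opposite way, with 19 and 234 UMIs in WT (161 and 773 CPM) and 39 and 440 UMIs in MT (160.3 and 851 CPM) for *Nfix* and 7 and 88 UMIs in WT (59.2 and 291 CPM) and 9 and 152 UMIs in MT (37.0 and 294 CPM) for *Nfib*. High *Nfia* and low *Nfix* and *Nfib* thus went with *Gjd2*, in WT as in MT cells. *Tfap2c*, another AP-2 gene, had 1 and 61 UMIs in WT (8.46 and 201 CPM) and 0 and 114 UMIs in MT (0 and 221 CPM). *Nhlh2*, a basic helix-loop-helix factor, had 7 and 293 UMIs in WT (59.2 and 967 CPM) and 3 and 320 UMIs in MT (12.3 and 619 CPM). *Nr2f2*, which encodes the orphan nuclear receptor COUP-TFII, had 5 and 172 UMIs in WT (42.3 and 568 CPM) and 3 and 232 UMIs in MT (12.3 and 449 CPM). These 3 genes were low in *Gjd2*-only cells. *Ebf1*, the paralog of *Ebf3*, was likewise higher in *Ebf3*-only cells at 16.9 and 489 CPM in WT and 41.1 and 253 CPM in MT. *Prox1*, a homeobox gene used as an AII marker, was not called, at 685 and 314 CPM in WT and 444 and 304 CPM in MT, and neither was the homeobox gene *Six3*, at 457 and 452 CPM in WT and 493 and 464 CPM in MT, nor *Pax6*, 1 of the rule genes, at 583 and 1083 CPM in WT and 399 and 731 CPM in MT.

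Other genes called encode secreted products and receptors. *Cartpt*, the precursor of the CART neuropeptide, had 4 and 504 UMIs in WT (33.8 and 1664 CPM) and 19 and 313 UMIs in MT (78.1 and 605 CPM). It was detected in 38 of 39 WT and 48 of 58 MT *Ebf3*-only cells, and in 4 of 13 and 11 of 30 *Gjd2*-only cells. *Igf1*, which encodes insulin-like growth factor 1, had 0 and 100 UMIs in WT (0 and 330.2 CPM) and 2 and 151 UMIs in MT (8.22 and 292 CPM). Both were higher with *Ebf3*. *Esr1*, which encodes estrogen receptor alpha, had 0 UMIs in the *Gjd2*-only cells of both libraries, with 0 and 42 UMIs in WT (0 and 139 CPM) and 0 and 38 UMIs in MT (0 and 73.5 CPM). With 0 UMIs, levels under 25.4 CPM in the WT and 12.3 CPM in the MT *Gjd2*-only cells (3 counts) could not be seen.

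The dopamine receptor genes *Drd1* and *Drd2* had 0 and 31 UMIs in WT (0 and 102 CPM) and 3 and 41 UMIs in MT (12.3 and 79.3 CPM) for *Drd1* and 18 and 3 UMIs in WT (152 and 9.91 CPM) and 28 and 5 UMIs in MT (115 and 9.67 CPM) for *Drd2*. The D1 gene was therefore higher with *Ebf3* and the D2 gene higher with *Gjd2*. *Gfra1* and *Gfra2*, the coreceptors for GDNF and neurturin, were on the *Gjd2* side, at 144 and 0 CPM in WT and 148 and 1.93 CPM in MT for *Gfra1* and 254 and 0 CPM in WT and 144 and 1.93 CPM in MT for *Gfra2*. *Dner*, a transmembrane Notch ligand and AII marker, had 92 and 5 UMIs in WT (778 and 16.5 CPM) and 115 and 11 UMIs in MT (473 and 21.3 CPM). *Dab1*, another AII marker, was not called, at 228 and 281 CPM in WT and 197 and 190 CPM in MT.

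Channel and calcium-binding genes were found on both sides. *Kcnma1*, the pore of the large-conductance calcium-activated potassium channel, had 141 and 34 UMIs in WT (1192 and 112 CPM) and 291 and 44 UMIs in MT (1196 and 85.1 CPM). The sodium channel gene *Scn1a* had 372 and 36.3 CPM in WT and 304 and 38.7 CPM in MT. *Calb1*, the gene for calbindin, had 22 and 2 UMIs in WT (186 and 6.60 CPM) and 35 and 8 UMIs in MT (144 and 15.5 CPM). These genes were higher with *Gjd2*. On the *Ebf3* side, *Hpca*, the calcium sensor hippocalcin, had 8 and 157 UMIs in WT (67.6 and 518 CPM) and 6 and 155 UMIs in MT (24.7 and 299.8 CPM), and the potassium channel gene *Kcnb2* had 0 and 54 UMIs in WT (0 and 178 CPM) and 4 and 80 UMIs in MT (16.4 and 155 CPM). *Calb2*, the gene for calretinin, did not separate the patterns, at 439.7 and 446 CPM in WT and 312 and 331 CPM in MT. No glycine receptor gene passed the 4-fold rule. *Glra2*, the alpha 2 subunit gene, was at 25.4 and 145 CPM in WT and 28.8 and 104 CPM in MT, and *Glra3*, the alpha 3 gene, at 101 and 13.2 CPM in WT and 61.7 and 15.5 CPM in MT. Their intervals excluded equality in both libraries, in opposite directions. The beta subunit gene *Glrb* was at 127 and 89.2 CPM in WT and 57.6 and 61.9 CPM in MT, with intervals that held equality in both.

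**Figure D2:**
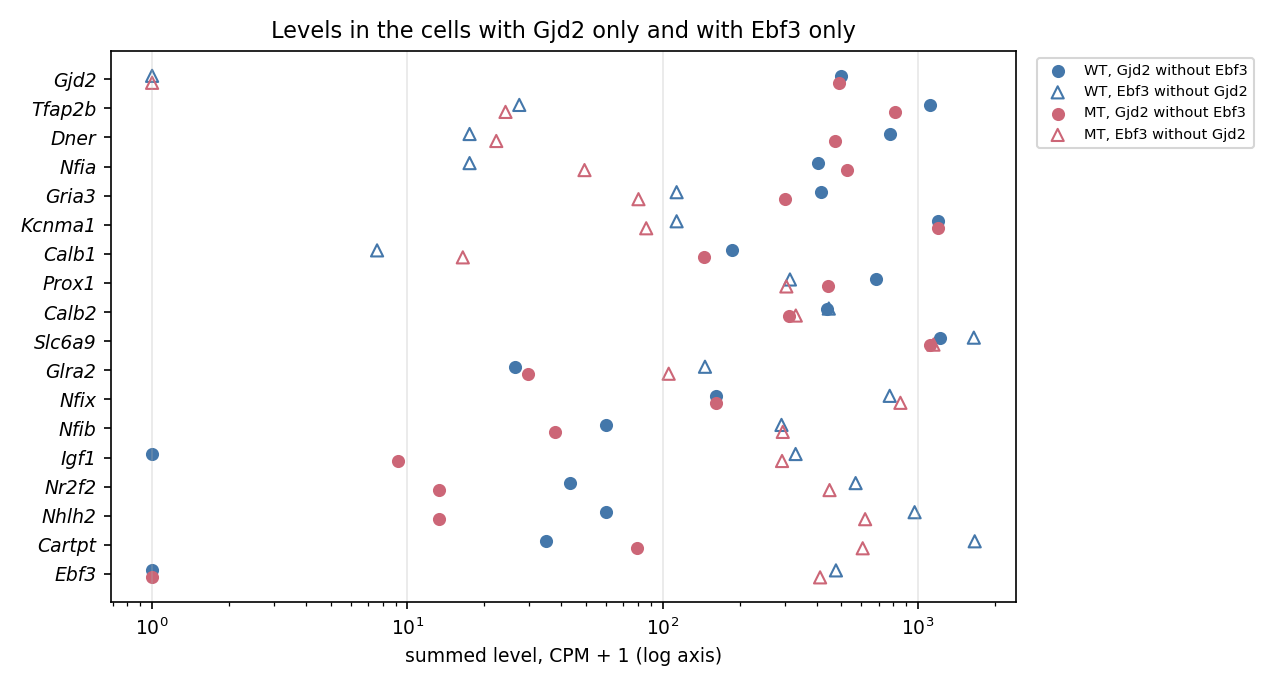
Summed levels of selected genes in the *Gjd2*-only cells (filled circles, 13 WT and 30 MT cells) and *Ebf3*-only cells (open triangles, 39 WT and 58 MT cells), as CPM + 1 on a log axis. For each gene the circles of both libraries fall on the same side of the triangles of both libraries, apart from *Calb2* and *Slc6a9*, whose symbols lie close together or overlap.

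The letters CCCNNGGG, the core of the palindrome that early B-cell factors are known to bind, were looked for in the RefSeq promoters (250 bases before to 50 after each start, GRCm38.p6) of genes from this contrast. They read the same on both strands. They were found for 15.4% of all 27025 genes, for 20 of the 46 matched genes that were higher with *Ebf3* (43.5%) and for 9 of the 29 matched genes that were higher with *Gjd2* (31.0%). All genes include those with too few UMIs to be compared between the patterns. The share over the compared genes alone was not counted, so these shares have no like background. A gene can have more than 1 promoter. Counted by promoter, the letters were in 13.7% of all 32851 promoters. They were in 21 of 76 promoters on the *Ebf3* side (27.6%) and 9 of 38 on the *Gjd2* side (23.7%). The longer palindrome, with T before and A after these letters, was found for 1.06% of all genes and for 1 gene on either side, *Mast4* with *Ebf3* and *Neurod2* with *Gjd2*. The stretch around 1 match of the shorter form is shown as an example, from *Ier5*, a gene called higher with *Ebf3*. It lies at chr1:155099741-155099790 (GRCm38.p6, minus strand), with the matched letters in capitals, and it does not hold the longer form.
Ier5 promoter: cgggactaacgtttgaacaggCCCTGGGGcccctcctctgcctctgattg
*Ier5* is an immediate early response gene, and it had 0 and 92 UMIs in WT (0 and 304 CPM) and 1 and 117 UMIs in MT (4.11 and 226 CPM). The match is a description of these letters, and binding was not measured.

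Transcripts encoded by mtDNA made up 6.15% of WT member UMIs (exact interval 6.10% to 6.21%) and 7.04% of MT member UMIs (6.99% to 7.09%). The median cell went the opposite way, at 6.81% in WT and 5.42% in MT. More than 15% was found in 16 MT members (12.3%) and 1 WT member (1.45%). In the cells with few transcripts of other types the summed shares were 7.50% and 7.82%. The *Gjd2*-only cells had more than the *Ebf3*-only cells in both libraries, with 9.37% against 6.29% in WT and 8.92% against 6.55% in MT. Rods had 8.38% in WT and 7.10% in MT, and free RNA 18.03% and 8.72%. The share was a criterion of the rule, with values above 20% removed.

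**Figure D3:**
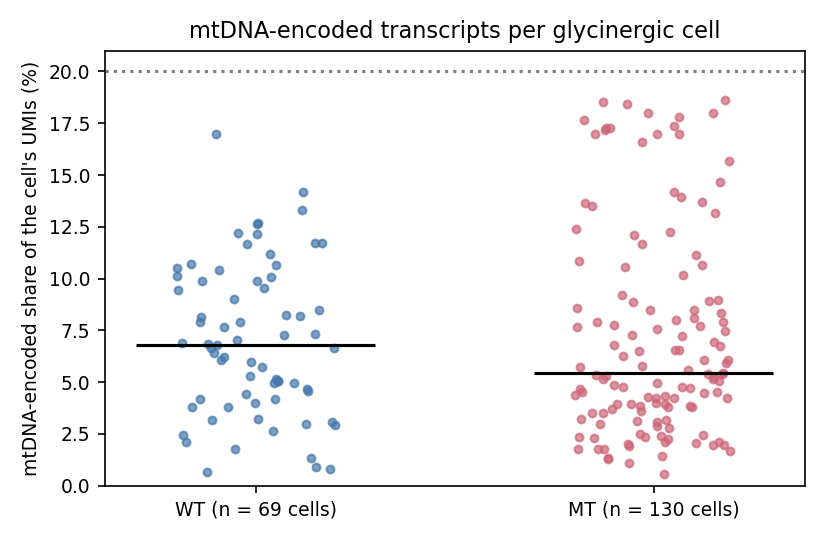
Percent of UMIs from mtDNA-encoded genes in each glycinergic amacrine cell of the WT (n = 69 cells) and MT (n = 130 cells) library, with the limit of 20% as a dotted line. The 2 libraries overlap through most of the range, and 16 MT cells but 1 WT cell lie above 15%.

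Of the 13 mtDNA-encoded genes, 9 had a ratio above and 4 a ratio below 1, with a median log2 ratio of 0.16 against 0.02 over all 9460 genes with at least 20 UMIs, of which 50.8% were above and 49.2% below. In the cells with few transcripts of other types the median of the 13 was 0.01. *mt-Nd6*, the mutated gene, had 16 UMIs (22.2 CPM) in WT and 29 UMIs (27.1 CPM) in MT cells, and its log2 ratio was 0.29 (95% interval -0.64 to 1.27). No difference in the level of *mt-Nd6* was detectable at 45 UMIs in all. *mt-Nd1*, another complex I subunit, had 3631 UMIs (5027 CPM) in WT and 6807 UMIs (6352 CPM) in MT cells, with a log2 ratio of 0.34 (95% interval 0.28 to 0.40). The cytochrome c oxidase genes *mt-Co1* and *mt-Co2* had log2 ratios of 0.27 and 0.28.

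The 4 genes below 1 were *mt-Atp8*, *mt-Nd4l*, *mt-Nd3* and *mt-Nd5*. *mt-Atp8*, a subunit of ATP synthase, had 129 UMIs (179 CPM) in WT and 86 UMIs (80.3 CPM) in MT cells, with a log2 ratio of -1.15 (95% interval -1.57 to -0.75), and -1.42 in the cells with few transcripts of other types. *mt-Nd4l* had 306 WT and 311 MT UMIs, a log2 ratio of -0.55 (95% interval -0.78 to -0.31), and *mt-Nd3* had 1168 WT and 1410 MT UMIs, a log2 ratio of -0.30 (95% interval -0.41 to -0.18). The genes *mt-Atp8* and *mt-Nd4l* overlap their longer neighbours *mt-Atp6* and *mt-Nd4*, so how reads were split between them is uncertain. In rods all 13 genes had a ratio below 1, with a median of -0.37, and *mt-Atp8* was at -1.56.

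Nuclear-encoded genes of the respiratory chain were lower in the MT members by a small amount. Of 75 nuclear OXPHOS genes, 68 had a ratio below 1 (49.2% of all genes did), with a median log2 ratio of -0.26. None of them passed a rule of at least 2-fold with an interval that excluded 1, called the 2-fold rule from here on, which 3.09% of the genes tested passed upward and 2.37% downward. The direction was shared by the complexes, with 31 of 36 genes of complex I below 1 (median -0.24), 3 of 4 of complex II (-0.25), 8 of 9 of complex III (-0.26), 11 of 11 of complex IV (-0.36) and 15 of 15 of complex V (-0.33). In the cells with few transcripts of other types 63 of the 75 were below 1, where 48.3% of all genes were, with a median of -0.20. The direction did not hold for every complex within each pattern. In *Ebf3*-only cells 3 of 4 complex II genes were above 1 (median 0.16), and in *Gjd2*-only cells 6 of 9 complex III genes (0.16). These counts stand without the share of all genes above 1 within each pattern.

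*Ndufb11*, a subunit of complex I, had the median ratio of the 75 genes, with 277 UMIs (384 CPM) in WT and 343 UMIs (320.1 CPM) in MT cells and a log2 ratio of -0.26 (95% interval -0.49 to -0.03). The next 3 genes lie below the lower quartile of their own complex. *Cox7b*, a subunit of complex IV, had 421 UMIs (583 CPM) in WT and 405 UMIs (378 CPM) in MT cells, with a log2 ratio of -0.63 (95% interval -0.83 to -0.42). *Uqcrb*, a subunit of complex III, had 472 UMIs (654 CPM) in WT and 473 UMIs (441 CPM) in MT cells, a log2 ratio of -0.57 (95% interval -0.75 to -0.38). *Ndufc2*, a subunit of complex I, had 451 UMIs (624 CPM) in WT and 511 UMIs (477 CPM) in MT cells, a log2 ratio of -0.39 (95% interval -0.57 to -0.20). Their intervals exclude 0.

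The direction of the list was not the same in other cell types. In rods 69 of the 75 genes were above 1 with a median of 0.21, and in bipolar cells 42 were above and 33 below with a median of 0.02. Within the *Ebf3*-only cells the median was -0.23 and within the *Gjd2*-only cells -0.09. In GABAergic amacrine cells (5 WT and 44 MT) it was -0.02. These differences between cell types were not tested. Shares of all genes above 1 in bipolar cells, in GABAergic cells and within each pattern are not reported here, so counts in them lack that comparison. Of the ribosomal protein genes 66 of 80 were above 1 in glycinergic cells, with a median of 0.18. In rods 70 of 80 were above 1 (median 0.17), and in bipolar cells 63 of 80 (0.11). Among the members the ribosomal median was 0.025 within the *Ebf3*-only cells, with 46 of 80 above 1, and 0.44 within the *Gjd2*-only cells, and it was also 0.025 with each cell weighted equally.

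Glycolytic genes had a median of -0.18, with 13 of 16 below 1. It was -0.10 in the cells with few transcripts of other types and 0.08 in the *Ebf3*-only cells, so its direction depended on the members used. *Gapdh* had 2330 UMIs (3226 CPM) in WT and 3328 UMIs (3106 CPM) in MT cells, a log2 ratio of -0.05 (95% interval -0.13 to 0.02), and *Hk1*, the hexokinase of neurons, had 114 UMIs (158 CPM) in WT and 261 UMIs (244 CPM) in MT cells, a log2 ratio of 0.63 (95% interval 0.30 to 0.96). *Eno2*, neuronal enolase, had 269 WT and 228 MT UMIs (log2 ratio -0.81), and 1 WT barcode held 40.1% of the WT UMIs. Without the barcodes rich in other transcripts its ratio was -0.16. The antioxidant list had 8 of 12 genes below 1 and a median of -0.13, which was -0.03 in the cells with few transcripts of other types and 0.18 in the *Ebf3*-only cells, with *Sod1* (superoxide dismutase 1) at -0.13 and *Gpx4* (glutathione peroxidase 4) at -0.22. Over all members, none of the genes of these lists with at least 50 UMIs passed the 2-fold rule. *Keap1*, which encodes an inhibitor of the antioxidant response, was called higher in the cells with few transcripts of other types (1.20), as were 3.46% of the genes tested there. In the *Ebf3*-only cells *Keap1* (1.02) and *Aldoc*, which encodes aldolase C (1.79), were called higher. The share of all genes called in the *Ebf3*-only cells is not reported here, so these 2 calls have no base rate beside them.

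**Figure D4:**
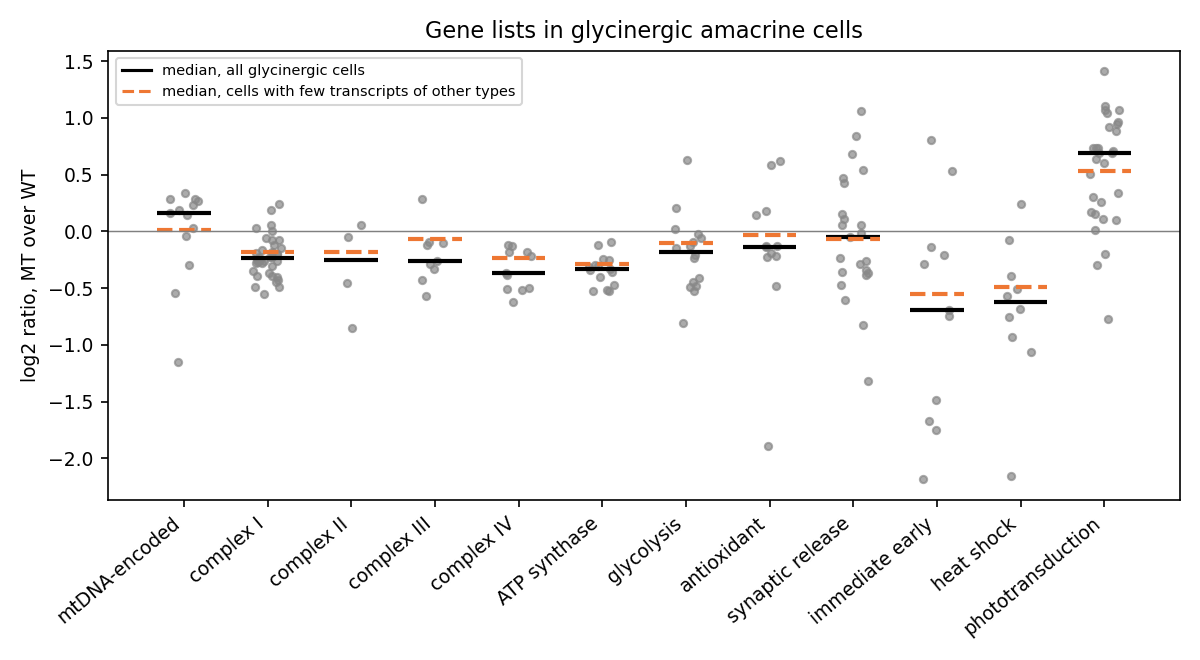
Log2 ratios of MT over WT for single genes (points) of each list in the glycinergic amacrine cells, with list medians as solid lines and the medians in cells with few transcripts of other types as dashed lines. The points of complexes I to IV and of ATP synthase, which are the nuclear OXPHOS genes, lie mostly below 0 (median over all 75 of -0.26), the immediate early and heat shock points lower (-0.69 and -0.63), and the phototransduction points above 0 (0.69).

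Across all genes, 6406 had at least 50 UMIs over both libraries. Of these 198 (3.09%) were higher and 152 (2.37%) lower in MT members by the 2-fold rule. A single barcode held over 25% of the UMIs, in the library where the gene was higher, for 5 of the 198 and 90 of the 152. In the cells with few transcripts of other types 4049 genes had enough UMIs, and 140 (3.46%) were higher and 44 (1.09%) lower. Of the 198 genes, 60 also passed the rule there and all 198 kept their sign. Of the 152, 16 passed it and 102 kept their sign. The lower calls included 4 RPE and 5 ganglion cell genes of the lists described above, such as *Rpe65* and *Sncg*.

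Immediate early genes were mostly lower in MT members. Of 11 with at least 20 UMIs, 9 had a ratio below 1. Their median was -0.69, with an interval of the median from -1.75 to 0.53. Of the 10 with at least 50 UMIs, 4 were called lower by the 2-fold rule. In the cells with few transcripts of other types the median was -0.55, with 3 genes called lower and 1 higher. In the *Gjd2*-only cells 2 of 4 genes were above 1. *Fos* had 441 UMIs (611 CPM) in WT and 194 UMIs (181 CPM) in MT cells, with a log2 ratio of -1.75 (95% interval -2.01 to -1.51), and was detected in 48 of 69 WT and 55 of 130 MT members. *Egr1* had 263 UMIs (364 CPM) in WT and 139 UMIs (129.7 CPM) in MT cells, a log2 ratio of -1.49 (95% interval -1.80 to -1.19). *Fosb* and *Nr4a1* followed at -2.18 and -1.67. These genes encode transcription factors that neurons turn on within minutes of activity or of tissue handling. *Jun*, of the same list, had 37 WT and 96 MT UMIs and a ratio of 0.81. The same list was lower in MT rods (median -0.98), bipolar cells (-1.06) and free RNA (-1.31). In the GABAergic amacrine cells, of which WT had 5, it was 0.55, with 5 of 9 genes above 1.

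Heat shock genes were also lower, with 9 of 10 below 1 and a median of -0.63, or -0.49 in the cells with few transcripts of other types. *Hspa8*, the constitutive HSC70 chaperone, had 1175 UMIs (1627 CPM) in WT and 917 UMIs (856 CPM) in MT cells, a log2 ratio of -0.93 (95% interval -1.05 to -0.80). *Hsph1*, an HSP110 chaperone, passed the 2-fold rule at -1.07, and was -0.63 in the cells with few transcripts of other types. The medians were -0.81 in rods, -0.79 in bipolar cells and -0.47 in GABAergic cells. Whether handling of the tissue differed between the libraries was not tested.

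*Cartpt* was the neuropeptide gene with the most UMIs, and the other 11 neuropeptide genes of the list had under 20 UMIs each. It had 773 UMIs (1070.3 CPM) in WT and 419 UMIs (391 CPM) in MT cells, with a log2 ratio of -1.45 (95% interval -1.63 to -1.28), and -1.58 in the cells with few transcripts of other types. It was detected in 53 of 69 WT and 75 of 130 MT members, against 1.56% and 2.93% of rods. Within the *Ebf3*-only cells, which hold most of it, the level was 1664 CPM in WT and 605 CPM in MT, a log2 ratio of -1.46 (95% interval -1.67 to -1.25), so it was lower within that pattern too. In *Gjd2*-only cells it was 33.8 and 78.1 CPM. In the GABAergic cells it was 7553 CPM in 5 WT and 983 CPM in 44 MT cells, lower in MT as in the members. Rods had more in the MT library (log2 ratio 1.32).

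Genes of the glycinergic synapse gave mixed values. Of 5 glycine receptor and scaffold genes 3 were above 1 and 2 below, with a median of 0.00, or -0.17 in the cells with few transcripts of other types. *Glra2* had 65 WT and 78 MT UMIs, a log2 ratio of -0.31 (95% interval -0.80 to 0.19), *Glra3* had 24 WT and 52 MT UMIs, a log2 ratio of 0.55 (95% interval -0.18 to 1.31), and *Glrb*, the beta subunit that anchors the receptor, had 66 WT and 62 MT UMIs, a log2 ratio of -0.66 (95% interval -1.18 to -0.14). Of the 3 intervals, only that of *Glrb* excluded 0. Genes of glycine transport and breakdown had 2 above and 2 below 1, with a median of -0.21.

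Receptors for the inputs of these cells were likewise without a shared direction. Of 8 glutamate receptor genes 5 were above 1, with a median of 0.08 (0.21 in the cells with few transcripts of other types and -0.18 in the *Ebf3*-only cells), and *Gria2*, the AMPA receptor subunit that sets calcium permeability, had 309 UMIs (428 CPM) in WT and 461 UMIs (430.2 CPM) in MT cells, a log2 ratio of 0.01 (95% interval -0.20 to 0.22). GABA receptor genes had 9 of 12 below 1 and a median of -0.24, but 0.05 in the cells with few transcripts of other types, where 4 of 8 were below. *Gabrr2* passed the 2-fold rule at -1.11, with 71.4% of the UMIs of the higher library in 1 barcode.

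Synaptic release genes had 10 above and 13 below 1, with a median of -0.05. *Unc13b*, which encodes the vesicle priming factor Munc13-2, was higher by the 2-fold rule with 54 UMIs (74.8 CPM) in WT and 167 UMIs (156 CPM) in MT cells, a log2 ratio of 1.06 (95% interval 0.61 to 1.53). Rods carried more of it than members did, at 271 CPM in WT and 247 CPM in MT. *Cplx1*, a complexin, was lower at -1.32, but 1 barcode held 70.9% of its WT UMIs and the ratio was 0.41 in the cells with few transcripts of other types. *Cplx3*, the complexin of ribbon synapses and AII cells, had 1559 UMIs (2159 CPM) in WT and 1894 UMIs (1767 CPM) in MT cells, a log2 ratio of -0.29 (95% interval -0.39 to -0.19), and *Syt1*, the calcium sensor of release, had 1666 UMIs (2307 CPM) in WT and 1891 UMIs (1765 CPM) in MT cells, a log2 ratio of -0.39 (95% interval -0.48 to -0.29).

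Markers of single glycinergic types were also compared. Of the 6 genes of an AII list 2 had a ratio above and 4 below 1, with a median of -0.13. In a list of other glycinergic types 2 genes were above and 2 below 1, with a median of 0.56. *Nfia* had 79 UMIs (109 CPM) in WT and 180 UMIs (168 CPM) in MT cells, a log2 ratio of 0.62 (95% interval 0.23 to 1.02), and *Dab1*, an adaptor of the reelin pathway and a classic AII marker, had 139 UMIs (192 CPM) in WT and 191 UMIs (178 CPM) in MT cells, a log2 ratio of -0.11 (95% interval -0.43 to 0.22). *Neurod2*, a helix-loop-helix factor, passed the 2-fold rule with 29 UMIs (40.2 CPM) in WT and 95 UMIs (88.6 CPM) in MT cells, a log2 ratio of 1.14 (95% interval 0.53 to 1.80). It was detected in 14 of 69 WT and 41 of 130 MT members. *Neurod2* was also called higher in *Gjd2*-only than in *Ebf3*-only cells, at 169 and 16.5 CPM in WT and 243 and 32.9 CPM in MT. *Cck*, of the list of other types, was lower in MT, with 22 WT and 6 MT UMIs in 3 and 5 members. A single barcode held 14 of its WT UMIs. *Calb2* was lower at 414 UMIs (573 CPM) in WT and 295 UMIs (275 CPM) in MT cells, a log2 ratio of -1.06 (95% interval -1.28 to -0.84), with 32.4% of its WT UMIs in 1 barcode and a ratio of -0.30 in the cells with few transcripts of other types.

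Phototransduction genes were higher in MT members. Of 29 such genes 26 had a ratio above 1, with a median of 0.69, and 4 passed the 2-fold rule. *Sag*, rod arrestin, had 1194 UMIs (1653 CPM) in WT and 3809 UMIs (3554 CPM) in MT cells, a log2 ratio of 1.10 (95% interval 1.01 to 1.20), and *Pde6a*, the rod phosphodiesterase subunit, had 203 UMIs (281 CPM) in WT and 802 UMIs (748 CPM) in MT cells, a log2 ratio of 1.41 (95% interval 1.19 to 1.64). The median was 0.53 in the cells with few transcripts of other types and 0.54 without the members richest in rod transcripts. In rods themselves it was 0.00, and in free RNA 0.09. In the GABAergic cells it was 3.72, with the list at 0.659% of UMIs in the 5 WT and 4.43% in the 44 MT cells. These are genes of another cell type, and their place in the members was not tested further.

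Of the 7 genes of the Müller list 5 had a ratio above 1, 1 was called higher and 1 lower, and the list took 0.226% of WT and 0.245% of MT UMIs. The gene called higher was *Glul*, the glutamine synthetase of Müller cells, with 199 UMIs (276 CPM) in WT and 1261 UMIs (1177 CPM) in MT cells, a log2 ratio of 2.09 (95% interval 1.88 to 2.32), and its ratio was 2.02 in the cells with few transcripts of other types. Free RNA had 464 CPM in WT and 1410.3 CPM in MT, and the ratio in rods was 0.88 and in bipolar cells 1.24. The gene called lower was *Clu*, which encodes clusterin, with 530 UMIs (734 CPM) in WT and 240 UMIs (224 CPM) in MT cells, a log2 ratio of -1.71 (95% interval -1.94 to -1.49), but 1.48 in the cells with few transcripts of other types. *Apoe*, which encodes apolipoprotein E, had 646 UMIs (894 CPM) in WT and 625 UMIs (583 CPM) in MT cells, a log2 ratio of -0.62 (95% interval -0.78 to -0.46) and of 0.89 in those cells. There, 5 of the 6 genes with enough UMIs were above 1. Müller cell transcripts in a member and *Glul* of its own cannot be told apart in these counts.

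Outside the lists, genes were taken by a rule that left out those led by 1 barcode. The 10 highest were *Crb1*, *Sparc*, *Tmem108*, *Hk2*, *Cntln*, *Vax2os*, *Clip4*, *Mef2c*, *Kif21b* and *Crtc3*, with log2 ratios from 2.14 to 1.43. *Crb1*, a polarity protein of the outer limiting membrane, had 20 UMIs (27.7 CPM) in WT and 131 UMIs (122 CPM) in MT cells, a log2 ratio of 2.14 (95% interval 1.46 to 2.90). *Hk2*, the hexokinase of photoreceptors, had 47 UMIs (65.1 CPM) in WT and 248 UMIs (231 CPM) in MT cells, a log2 ratio of 1.83 (95% interval 1.38 to 2.31), and *Mef2c*, a MADS box transcription factor, had 71 UMIs (98.3 CPM) in WT and 298 UMIs (278 CPM) in MT cells, a log2 ratio of 1.50 (95% interval 1.12 to 1.89). All but *Sparc* had higher CPM in WT rods than in WT members, for example 229 CPM for *Crb1*, 474 CPM for *Hk2* and 582 CPM for *Mef2c*. *Sparc*, which encodes a secreted matrix glycoprotein, had 16 UMIs (22.2 CPM) in WT and 89 UMIs (83.1 CPM) in MT cells, a log2 ratio of 1.91 (95% interval 1.13 to 2.77), and 10.5 CPM in WT rods. All 10 kept a log2 ratio above 1 in the cells with few transcripts of other types, where rod transcripts were also higher in MT, as given above.

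The 10 lowest were *Mt3*, *Ctsd*, *Hspa5*, *Prxl2a*, *Rab11a*, *Tmco1*, *Llph*, *Mfap1b*, *Rabggtb* and *Ahsa1*, from -2.10 to -1.08. *Mt3*, the metallothionein of the nervous system, had 315 UMIs (436 CPM) in WT and 109 UMIs (102 CPM) in MT cells, a log2 ratio of -2.10 (95% interval -2.43 to -1.78), and *Ctsd*, the lysosomal protease cathepsin D, had 324 UMIs (449 CPM) in WT and 175 UMIs (163 CPM) in MT cells, a log2 ratio of -1.46 (95% interval -1.73 to -1.19). In the cells with few transcripts of other types their ratios were -0.52 and -0.54. *Hspa5*, the chaperone BiP of the endoplasmic reticulum, had 342 UMIs (474 CPM) in WT and 187 UMIs (175 CPM) in MT cells, a log2 ratio of -1.44 (95% interval -1.71 to -1.18), and kept a ratio of -1.19 there. It was also lower in rods (-0.94) and bipolar cells (-1.39). *Rab11a*, a GTPase of recycling endosomes, had 78 WT and 49 MT UMIs, a log2 ratio of -1.24 (95% interval -1.79 to -0.71), and -1.17, while its ratio in rods was -0.17.

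**Figure D5:**
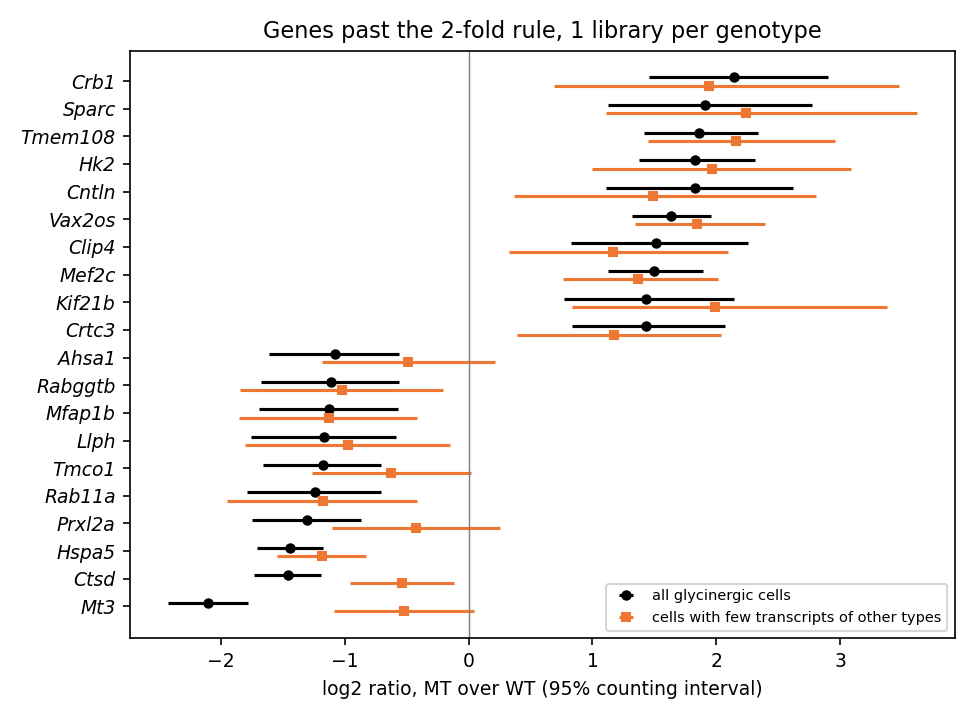
Log2 ratios of MT over WT with 95% counting intervals for the 10 highest and 10 lowest genes outside the lists, in all glycinergic cells (black circles) and in the cells with few transcripts of other types (orange squares). The 10 higher genes keep values above 1 in both, and *Mt3*, *Ctsd* and *Prxl2a* move from below -1 to about -0.5.

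Compared with the GABAergic amacrine cells, 29 of 7352 genes (0.394%) had a ratio of 4 or more and 33 (0.449%) a ratio of 0.25 or less in both libraries, with intervals that excluded equality. The GABAergic cells were chosen in the same way with *Gad1* and *Gad2* in the place of *Slc6a9*, and the WT library had only 5 of them, against 44 in MT, so that levels under 68.9 CPM (3 counts) could not be seen in the WT GABAergic cells. Of the 29 genes, 19 had 0 UMIs in GABAergic cells of a library, and with the zeros set to 3 counts 13 of the 29 and all 33 of the lower genes stayed at 4-fold or more. Values are given for glycinergic and then GABAergic cells. Of the 10 named genes, ordered by the smaller of the ratios of the libraries with 0 UMIs read as past any ratio, *Lamp5*, *Lgr5*, *Nfix* and *Calb2* were among the 13. *Ier5* had 180.0 and 0 CPM in WT and 150.2 and 2.15 CPM in MT, so its WT ratio was at least 2.61. *Ebf3* had 253 and 0 CPM in WT and 250.1 and 17.2 CPM in MT, and *Nfix* had 469 and 0 CPM in WT and 594 and 60.2 CPM in MT. *Lamp5*, a membrane protein of neurons, and *Lgr5*, a receptor of the R-spondin pathway, had 509.5 and 23.0 CPM in WT and 429 and 30.1 CPM in MT, and 224 and 23.0 CPM in WT and 228 and 17.2 CPM in MT, respectively. *Calb2* had 573 and 45.9 CPM in WT and 275 and 38.7 CPM in MT. *Necab3*, *Sulf2*, *Nwd2* and *Ptprt* had 0 UMIs in WT GABAergic cells and WT ratios of at least 1.67, 1.31, 1.85 and 2.03, so their place among the 10 rests on the MT library. *Prox1*, outside the 10, is among the 13, and *Glra2* was called higher with a WT ratio of at least 1.31.

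Among the lowest were *Kcnip1*, *Nr4a2*, *C1ql2*, *Cxcl14*, *Tenm1*, *Gng2*, *C1ql1* and *Pcdh7*. *Slc6a11*, a GABA transporter outside the 10 lowest, had 15.2 and 367 CPM in WT and 32.7 and 155 CPM in MT. *Kcnip1*, a subunit of A-type potassium channels, had 5.54 and 413 CPM in WT and 0.933 and 127 CPM in MT, and *Nr4a2*, a nuclear receptor, had 1.38 and 574 CPM in WT and 1.87 and 90.3 CPM in MT. *Slc32a1*, which both kinds of cell use to fill vesicles, was close, with 224 and 298 CPM in WT and 284 and 282 CPM in MT.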

How the data were processed

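The authors deposited counts of UMIs per gene and barcode for 1 WT and 1 MT retina library, unfiltered and without normalization. The submitters' processing notes name Cell Ranger 3.0.2 and mm10. The annotation release was not given in the sources used here. Kept barcodes had more than 400 UMIs, more than 200 genes and no more than 20% mtDNA-encoded UMIs, the limits of the study's methods. Of 1553114 WT and 1428687 MT barcodes with a UMI, 23176 and 22256 passed the UMI and gene limits and 12529 and 18395 all limits. No doublet caller was run, and doublets among the members were not tested for beyond the transcripts of other cell types. The study's clustering was not repeated, so names here come from a rule on marker counts and may differ from its names. GABAergic cells met the same rule with *Gad1* and *Gad2*. Rods had at least 4 of 6 rod markers, a set level of 1 of them, and bipolar cells at least 4 of 8 bipolar markers.

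UMIs were summed over members and scaled to 1000000 (CPM). Ratios have conditional exact, sums Poisson and shares Clopper-Pearson intervals at 95%. Medians of lists were taken over genes reaching 20 UMIs, and the 2-fold rule over those reaching 50. A level of 0 allows up to 3 counts, which is 4.15 CPM in WT and 2.80 CPM in MT members. Genes named outside the lists had at least 100 UMIs, no barcode with over 25% of them, the same direction with cells weighted equally, and the 10 highest or lowest ratios, leaving out clone names. For the GABAergic comparison they were the 10 highest and lowest by the smaller ratio. Cells and lists were chosen with earlier results of these data known. Values of some genes are not reported here. Scripts were tested on simulated data. Python 3.11.15, numpy 2.4.6, scipy 1.17.1, pandas 2.3.3 and matplotlib 3.10.9 were used. The *mt-Nd6* sequence comes from the GENCODE mouse transcripts and promoters from RefSeq.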

Additional observations from a re-analysis of the deposited data

Results flagged for a closer look

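Barcodes above the limit of 20% mtDNA-encoded UMIs were outside the comparisons, apart from those made without that limit. In the MT library 6 of 3861 such barcodes met the rest of the rule for glycinergic cells (0.155%, exact interval 0.0570% to 0.338%), and in the WT library 5 of 10647 did (0.0470%, 0.0153% to 0.110%). The share in MT was above that in WT, though the intervals overlap. *Slc32a1* was detected in 4 of the 6 MT and in all 5 of the WT barcodes, so most of them carried the vesicular transporter of glycinergic cells. They held 35356 UMIs in MT and 33475 in WT. Whether they were damaged cells was not tested.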

How the results depend on the processing

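No paired analysis was possible because each genotype had 1 library, and no replicate could be left out. Of 347 values of 28 list medians under 13 settings 308 stayed within the spread of the reported value, and 33 values of 14 lists changed sign, among them the GABA receptor, antioxidant, glutamate receptor and mtDNA-encoded lists. Of 220 values of the 20 genes named outside the lists 196 did and 1 changed sign. The settings with few transcripts of other types, without members rich in RPE transcripts and with 1 pattern only were chosen after seeing the data. The cause of each shift was not tested.

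With at least 1000 UMIs per cell the MT share was 0.855%. Without an mtDNA limit the WT share was 0.319% and the log2 ratio of shares 0.94 (0.52 to 1.37), mtDNA-encoded UMIs were 7.03% in WT and 7.58% in MT, and the ribosomal median was 0.14. With a limit of 10% the shares were 1.04% and 0.853% (log2 ratio -0.29), mtDNA-encoded UMIs 4.82% and 4.78%, and the ribosomal median 0.14. With at least 3 *Slc6a9* UMIs mtDNA-encoded UMIs were 6.06% in WT. Without the members richest in rod transcripts they were 5.99% and 7.55%, and the medians were 0.29 for mtDNA-encoded, -0.34 for nuclear OXPHOS and 0.14 for ribosomal genes. In the cells with few transcripts of other types the shares were 0.383% and 0.451%, mtDNA-encoded UMIs 7.50% and 7.82%, lower genes 44, the nuclear OXPHOS median -0.20, the ribosomal median 0.11, and genes higher than in GABAergic cells 46. Thinned cells gave shares of 0.237% and 0.273%. With each cell weighted equally 339 genes were higher, the antioxidant median was -0.22, the ribosomal median 0.025, and mtDNA-encoded shares 7.03% and 7.22%. A minimum of 20 UMIs gave 375 higher and 342 lower genes and 53 genes lower than in GABAergic cells, and no minimum gave 465 and 493. In *Ebf3*-only cells mtDNA-encoded UMIs were 6.29% and 6.55%, the glycolysis median changed sign to 0.076, and the ribosomal median was 0.025. In *Gjd2*-only cells mtDNA-encoded UMIs were 9.37% and 8.92%, the nuclear OXPHOS median -0.092, the ribosomal median 0.44, and *Rabggtb* changed sign to 0.13. At 1 library per genotype, depth sets only the counting error, and the spread between animals is not known.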

Other observations

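Some lists held few UMIs or fell outside the comparisons above. The amacrine transcription factor list had 4 of 9 genes above 1 and a median of -0.04. *Six3*, a homeobox gene of the inner retina, had 275 UMIs (381 CPM) in WT and 527 UMIs (492 CPM) in MT cells, a log2 ratio of 0.37 (95% interval 0.16 to 0.58). Of the nuclear long noncoding RNAs with enough UMIs, 4 of 4 were above 1, with a median of 0.31, while *Malat1* had a ratio of 0.27 in all members and -0.06 in the cells with few transcripts of other types. *Ppp1r17*, a phosphatase inhibitor gene, had 6 WT and 43 MT UMIs in 6 and 19 cells. These counts are too few to describe the rarer glycinergic types separately.

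Transcripts of many amacrine genes in rods were higher in the MT library, and this stands beside every ratio above. In rods all 9 rule genes (median 1.48) and 10 of 11 amacrine transcription factor genes (0.95) were above 1. Of all genes 55.8% were above 1 there. Genes of glycine transport and breakdown had 4 of 7 above 1, with a median of 0.10. In rods the log2 ratio was 1.93 for *Glra2*, 1.43 for *Prox1* and 1.11 for *Calb2*, against -0.31, -0.15 and -1.06 in the members. What part free RNA had in the members' own ratios was not tested.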
